A study of Mus musculus with 4 samples.

Results

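Single-bin gene units are genes that the counting annotation could not divide: every exonic stretch of the gene forms 1 counting bin, so all of its reads fall into 1 number per library. The deposited tables hold 40137 gene units, and 13879 of those that name a single gene have exactly 1 bin. Described here are the 1173 whose 4 counts averaged 10 or more, 8.45% of the single-bin units. The choice used the number of bins and the mean count over all libraries, so the levels that chose the members are given as a description, and the comparison by age was not part of it. At the threshold, the mouse genes Hmgb1-ps7, Pcdhb5 and Rassf10 had a mean of 9.75 counts and were not members, and Gm11790, Gm13493 and Gm24613 had a mean of 10 and were.

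The study asked how transcripts of thigh skeletal muscle differ with age in wild-type male C57BL/6J mice. It sequenced total RNA of whole tissue from 3 samples at 28 months and 1 sample at 18 months, with no treatment. The labels do not say whether each sample was 1 animal, so p-values measure only the spread between these samples. With 1 library at 18 months, that library is assumed to vary like the 28-month libraries, and in whole tissue fewer cells of a type and less RNA per cell cannot be told apart. Where a 28-month library is left out, p-values measure only the spread between the remaining 28-month libraries, which may be small by accident.

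Genes with no intron arise in several ways. Some coding families, such as the replication-dependent histones, the clustered protocadherins and many inducible transcription factors, have no intron in their coding part. Others are retrocopies: an mRNA was reverse transcribed and inserted elsewhere in the genome, mostly leaving a processed pseudogene that keeps the spliced sequence of its parent. Small RNAs such as snoRNAs and miRNA hairpins are cut from longer transcripts, often from introns of host genes, and the genes of the mitochondrial genome have no introns either. Reads of a retrocopy and of its parent can match both places, so the level of a retrocopy here is the level assigned to it, which cannot be told apart from reads of the parent where the sequences are the same.

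The sequences show how close the copies are. The first set is an 80-base window of mt-Co2 (cytochrome c oxidase subunit 2, mitochondrial genome, chrM:7457-7536, plus strand) beside the same window of Gm28661 (chr1:24615042-24615121, minus strand) and of Gm13341 (chr2:22587451-22587530, minus strand), both nuclear copies, in GRCm38. Capitals mark the 7 positions at which Gm13341 differs.
mt-Co2: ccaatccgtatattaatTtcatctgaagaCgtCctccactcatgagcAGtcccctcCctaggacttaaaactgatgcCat
Gm28661: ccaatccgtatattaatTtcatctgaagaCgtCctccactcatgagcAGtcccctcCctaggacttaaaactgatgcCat
Gm13341: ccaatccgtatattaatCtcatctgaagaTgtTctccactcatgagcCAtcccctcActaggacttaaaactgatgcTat
The Gm28661 window has no difference from mt-Co2.

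The second set is an 80-base window in exon 3 of Gapdh (chr6:125163279-125163358, minus strand), the glycolytic enzyme with the most copies among the members, beside 4 of its retrocopies, whose windows lie at chr15:93196696-93196775 (plus strand, Gm4335), chr3:78917359-78917438 (plus strand, Gm10291), chr2:43519218-43519297 (minus strand, Gm13464) and chr4:91852489-91852568 (minus strand, Gm12671). Capitals mark bases that differ from Gapdh.
Gapdh: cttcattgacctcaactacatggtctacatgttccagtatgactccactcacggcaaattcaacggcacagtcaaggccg
Gm4335: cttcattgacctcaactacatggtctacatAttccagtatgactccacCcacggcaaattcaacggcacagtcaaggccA
Gm10291: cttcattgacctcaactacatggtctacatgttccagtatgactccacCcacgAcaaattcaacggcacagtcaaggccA
Gm13464: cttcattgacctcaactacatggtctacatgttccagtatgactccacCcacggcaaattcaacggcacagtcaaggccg
Gm12671: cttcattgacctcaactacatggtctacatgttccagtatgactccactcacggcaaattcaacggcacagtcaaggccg
Gm4335 and Gm10291 differ from Gapdh at 3 bases each in this window, Gm13464 at 1 and Gm12671 at none.

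The members by class were 717 predicted genes (631 of them processed pseudogenes, 37 coding, 37 lncRNAs, 9 other pseudogenes and 3 unclassified transcripts), 176 named pseudogenes, 28 units whose ID had no entry in the annotation, 19 small RNAs, 11 genes of the mitochondrial genome and 4 named noncoding genes, which include 2 immunoglobulin segments, the rest being intronless coding genes. Most single-bin units had no reads at all, 11107 of 13879 with a count of 0 in every library. The share that became members differed by class. It was 21.9% of the named pseudogenes (176 of 805), 13.6% of the predicted genes (717 of 5275), 12.2% of the 1787 intronless coding genes and 0.362% of the small RNAs (19 of 5254). Of the intronless families, none of 907 olfactory receptor genes, 158 vomeronasal receptor genes and 50 keratin-associated protein genes was a member, whereas 9 of 56 replication-dependent histone genes and 12 of 22 protocadherin genes were. Of the 1145 members with an annotated position, 1098 had 1 exon. The median exon length was 832 bases, and the median over members of the mean count was 148, with 498 members under 100 counts.

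Total counts were 76163175, 75992582 and 67279205 at 28 months and 65780464 at 18 months. The labels' extraction text describes skin cells, so tissue markers were checked: the summed level of 8 fast muscle fibre markers was 92303 to 172066 CPM (counts scaled to a common library size by TMM factors, a normalised read count) over the 3 libraries at 28 months and 100847 CPM at 18 months. Of 8 epidermal keratinocyte markers, 7 were found, their sum was 0.891 to 1.15 CPM in the 4 libraries and Krt5 was at 0. The library of 28-month replicate 2 stood apart, with a scaling factor of 1.28 against 0.877 to 0.990 in the others, and it had the lowest level of the 4 libraries in 681 of 1173 members (58.1%) against 31.9% of all units tested. Overlap with other genes is common, as 122 of the 1145 positioned members share bases with an exon of another gene, 107 of them on the other strand. Whether the counting used strand is not given in the sources used here, so reads of such pairs cannot be told apart.

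The members held 5.74, 5.02 and 5.27% of all counts at 28 months, a mean of 5.34% ± 0.362 (SD, n = 3), and 11.7% at 18 months (95% exact binomial interval 11.6 to 11.7%, which, like every interval here, covers counting error only). Most of that gap lay in the mitochondrial genome, whose 11 members held 3.77% ± 0.299 of counts at 28 months and 9.58% at 18 months. Outside it, the 28-month libraries gave 1.70, 1.58 and 1.45% (mean 1.58% ± 0.123) and the 18-month library 2.08% (interval 2.07 to 2.08%). All 3 values at 28 months lay below that at 18 months, and the gap was larger than their spread. This order held for a denominator that sums all bins of a unit. With each unit entered there by only its bin of highest mean count, the order reversed, and the 18-month share lay below all 3. The counts of these members were 1295134, 1199531 and 977912 in the 28-month libraries and 1366864 in the 18-month library. The denominator of the 18-month library was then the largest, 26463110 against 20322986, 20455825 and 17251045 in 28-month replicates 1, 2 and 3. An exact permutation test of 3 samples against 1 cannot give a p below 0.25, so none is reported. Of the counts of members outside the mitochondrial genome, Gm42418 and Tpt1-ps3 held 19.4% and the 10 members with the highest mean count 29.3%.

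The number of single-bin units with at least 1 count was 1950, 2257 and 1967 at 28 months and 1967 at 18 months. After all libraries were thinned to the depth of the 18-month library it was 1899, 2206 and 1951 at 28 months, so replicate 2 had the most units detected and the other libraries did not stand apart by age. Small RNA genes were part of the excess of replicate 2, with 353 detected in it against 158 and 159 in the other 28-month libraries and 169 at 18 months.

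No member differed between 28 and 18 months at an adjusted p under 0.05 (edgeR quasi-likelihood test with Benjamini-Hochberg adjustment over all 15376 units tested), beside 0% of all units, and the smallest adjusted p of a member was 0.859. At an unadjusted p under 0.05 there were 83 members with lower levels at 28 months, against 2.36% of all units tested, and 3 with higher levels, against 2.54%. The DESeq2 Wald test called 6 members, where it called 0.202% of all units: mt-Rnr2, Gm10291, Gm4335 and 4933415F23Rik with lower and Gm10925 and Gm28661 with higher levels at 28 months. With replicate 2 left out, edgeR called 74 members lower at 28 months, where 4.35% of all units were called lower, and 13 higher, where 7.39% were. These were 46 predicted genes, 17 named pseudogenes, 16 intronless coding genes, 6 mitochondrial genes and 2 unmatched units. Without replicate 1 or without replicate 3 it called no member.

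The members lay lower at 28 months as a group, and the size of that shift depended on how bins were summed. The median log2 difference (28 minus 18 months) was -0.42 over the 1173 members, with 943 below 0, beside 0.056 over all units tested and 0.092 over units with 2 or more bins. The 18-month level was above every 28-month level in 694 members (59.2%), where the share of all units was 26.4%, and below every one in 56 members (4.77%), where it was 25.4%. Over units grouped by their number of bins the median climbed from -0.42 with 1 bin, through -0.30 with 2, -0.15 with 3, -0.05 with 4 to 5 and 0.012 with 6 to 10, to 0.23 with over 40 bins. The same contrast was seen among genes of like length, for example -0.48 in 205 single-bin members and 0.25 in 656 units with several bins at an exon length of over 1000 and up to 1500 bases, the length class with the widest gap among those with 20 or more units of each kind.

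**Figure D1:**
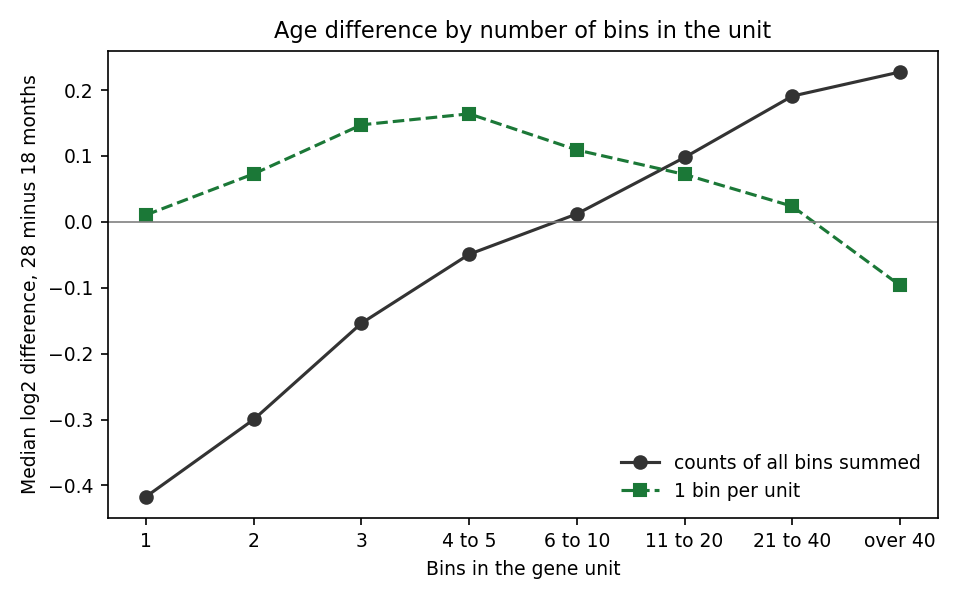
Median log2 difference (28 minus 18 months, vertical axis) of gene units grouped by their number of bins (horizontal axis), with the counts of all bins summed (circles) and with 1 bin per unit (squares). Summed, the medians climb from -0.42 to 0.23 and cross 0 at 6 to 10 bins. With 1 bin per unit they stay between -0.10 and 0.16.

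The libraries differed in how far a unit's bins added up. The counts of nuclear units summed over all bins were 4.54, 4.33 and 4.70 times those of their single most abundant bins at 28 months and 3.27 times at 18 months. A fit in which each unit is represented by its bin with the highest mean count was therefore added after seeing the data. In it the counts of the members are the same numbers, and only the scaling and the comparison with other units change. The median of the members was then 0.011, beside 0.059 over all units, 575 members were below 0, and the 18-month level was above every 28-month level in 317 members, where the share of all 14229 units of that fit was 23.8%, and below every one in 193, where it was 27.3%. That fit called no unit with all libraries. Without replicate 2 it called 41 members lower, where 5.21% of all units were, and 83 higher at 28 months, where 9.83% were. Both fits without replicate 2 called 50 members, 37 of them lower in both and 13 higher in both. The median of the whole group was thus below 0 with summed bins and near 0 with 1 bin per unit, so log2 differences of members are given on both scales. CPM values, and the order of libraries where no scale is named, are those with summed bins, and this order can differ with 1 bin per unit. At like length a contrast with other units was still there on the second scale. In the same length class the median with 1 bin per unit was -0.059 in single-bin members and 0.48 in units with several bins, and single-bin members had the lower median in every length class up to 4000 bases. Over that length it was 0.19 in single-bin members and -0.047 in the others.

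By class, the median log2 difference was -0.31 in intronless coding genes, -0.43 in named pseudogenes, -0.45 in predicted genes, -0.31 in small RNAs, -0.52 in unmatched units and -1.33 in the mitochondrial genome. With 1 bin per unit the same medians were 0.12, -0.003, -0.022, 0.11, -0.085 and -0.91. The mitochondrial genes were thus the class with a median far below 0 on both scales.

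Among the intronless coding genes the level per kilobase of exon was highest for Rps27rt, a retrocopy that codes for a form of ribosomal protein S27, at a mean of 332 CPM per kb over the 4 libraries. It was followed by Rpl9-ps6 at 88.3, Lrrc30 at 46.4, Hist1h1c at 45.8, H1f0 at 32.1 and Fem1a at 27.4 CPM per kb. Over the 28-month libraries these levels were 341 ± 115, 82.99 ± 18.7, 43.6 ± 6.99, 47.3 ± 20.9, 31.9 ± 9.07 and 25.1 ± 9.64 CPM per kb (mean ± SD, n = 3), so the order of Lrrc30, Hist1h1c, H1f0 and Fem1a is within the spread. Rps27rt matches Rps27 over 341 bases with no difference, and the parent's own unit had a mean of only 49.0 counts, so the 2 places cannot be told apart.

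Fem1a (ENSMUSG00000043683, chr17:56256810-56263610), a substrate receptor of a ubiquitin ligase, was at 214, 95.1 and 203 CPM in the 28-month libraries and 233 CPM in the 18-month library. Lrrc30, a leucine-rich repeat protein, was at 74.9, 65.4 and 89.8 CPM in the 28-month libraries and 96.8 CPM in the 18-month library. For both, the 18-month level was the highest of the 4 with summed bins, but the 28-month libraries spread widely and replicate 2 was the lowest. With 1 bin per unit Fem1a was at 747, 367 and 746 CPM in the 28-month libraries and 635 CPM in the 18-month library. On that scale the 18-month level of both genes lay inside the range at 28 months. The linker histone gene Hist1h1c was at 87.5, 36.5 and 97.2 CPM in the 28-month libraries and 64.7 CPM in the 18-month library. H1f0, the linker histone of nondividing cells, was at 81.4, 45.1 and 70.5 CPM in the 28-month libraries and 66.9 CPM in the 18-month library. For both linker histones the 18-month level lay inside the range at 28 months, with replicate 2 the lowest.

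The 3 intronless coding genes with the smallest p among those lower at 28 months were Otud1, Hnrnpa0 and Cebpb. Otud1 (ENSMUSG00000043415, chr2:19657752-19660583), a deubiquitinase, was at 8.31, 13.1 and 9.95 CPM in the 28-month libraries and 31.4 CPM in the 18-month library, so that the highest 28-month library lay below it by more than the spread of the 3. Its log2 difference was -1.59 (SE 0.32), or -1.14 with 1 bin per unit, and its adjusted p (edgeR) was 0.859 with all libraries and 0.0143 without replicate 2. Hnrnpa0 (chr13:58125879-58128556), an RNA-binding protein that binds AU-rich elements, was at 11.8, 11.9 and 12.9 CPM in the 28-month libraries and 21.1 CPM in the 18-month library, with a log2 difference of -0.79 (SE 0.25) and -0.35 with 1 bin per unit. The 3 libraries at 28 months were close together and all below the fourth, and its adjusted p (edgeR) without replicate 2 was 0.0453 with summed bins and 0.193 with 1 bin per unit, which ends the call. Cebpb (chr2:167688915-167690418), a transcription factor of adipose, inflammatory and regenerating tissue, was at 3.10, 2.71 and 2.90 CPM in the 28-month libraries and 5.99 CPM in the 18-month library, with a log2 difference of -1.05 (SE 0.34) and -0.61 with 1 bin per unit. The groups did not overlap, and its adjusted p (edgeR) without replicate 2 was 0.0547.

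In the other direction, Hist1h3d, a histone H3 gene, had 31, 20 and 17 counts in the 28-month libraries and 4 in the 18-month library. Rps12-ps3, a coding retrocopy of the ribosomal protein gene Rps12 with which it shares all of its 494 bases, was at 12.6, 4.91 and 9.76 CPM in the 28-month libraries and 4.50 CPM in the 18-month library. In both the 18-month library was the lowest, by a small margin in Rps12-ps3, where replicate 2 came close to it. On the CPM scale replicate 2 was the 28-month library nearest the 18-month level for both genes. Leaving it out thus removes that library, and with all libraries edgeR called neither gene. The log2 difference was 2.33 (SE 0.98) for Hist1h3d and 1.01 (SE 0.60) for Rps12-ps3, or 2.73 and 1.43 with 1 bin per unit. Without replicate 2 the adjusted p (edgeR) was 0.117 for Hist1h3d, or 0.0477 with 1 bin per unit, and 0.0261 for Rps12-ps3.

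**Figure D2:**
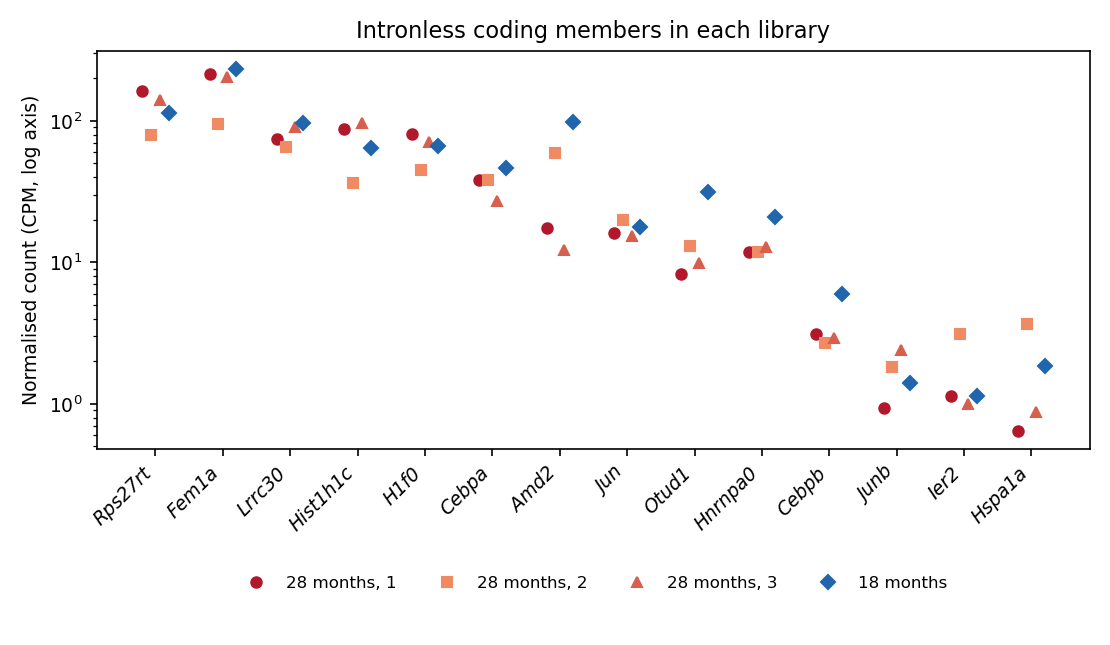
Normalised level (CPM, log axis) of 14 intronless coding members in each library, with circles, squares and triangles for 28-month replicates 1, 2 and 3 and diamonds for the 18-month library. Otud1, Hnrnpa0 and Cebpb have the diamond apart above the other 3 points, and Ier2 and Hspa1a have replicate 2 as the highest.

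Several inducible genes without introns had replicate 2 as the highest library and an 18-month level inside the range at 28 months, and others did not. Jun, a subunit of the AP-1 transcription factor, was at 16.1, 20.0 and 15.4 CPM in the 28-month libraries and 17.9 CPM in the 18-month library. Ier2, an immediate early gene, was at 1.14, 3.14 and 0.994 CPM against 1.14 CPM, and the heat shock gene Hspa1a at 0.644, 3.65 and 0.878 CPM against 1.86 CPM. For Jun and Ier2 the 18-month level was the lowest with 1 bin per unit. In each, with summed bins, the 18-month level lay inside the range of the 28-month libraries and replicate 2 was the highest. Rhob, which codes for a small GTPase, had the same order with 18.8, 37.9 and 14.1 CPM against 25.1 CPM, as had Thbd (thrombomodulin) with 9.45, 34.1 and 7.80 CPM against 19.3 CPM, the latter chosen after its values were seen. Junb, another AP-1 subunit gene, was highest in replicate 3, at 0.928, 1.82 and 2.39 CPM against 1.40 CPM. Jund, the third Jun family gene, was highest at 18 months, at 1.54, 1.35 and 1.16 CPM against 2.46 CPM. Cebpa, a transcription factor gene of the adipocyte lineage, was also highest at 18 months, with 38.3, 38.0 and 27.0 CPM in the 28-month libraries and 46.1 CPM in the 18-month library. With 1 bin per unit the 18-month level of Cebpa lay inside the range at 28 months. Of the 19 immediate early genes with several bins, 18 were tested and none was called. Their median log2 difference was -0.32, or 0.12 with 1 bin per unit, with 15 below 0 and 3 above on the summed scale, and their summed level was 152, 581 and 177 CPM in the 28-month libraries and 402 CPM in the 18-month library, so that replicate 2 was again the highest.

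Marker genes of other cell types were measured in the same libraries, and none of them was called (edgeR, adjusted p 0.859 for each macrophage and Schwann cell marker). The summed level of 7 macrophage markers was 95.4, 151 and 164 CPM in the 28-month libraries and 57.9 CPM in the 18-month library, with 7 of 7 lowest at 18 months, where the share of all units was 25.4%, and none at 0. That of 7 Schwann cell markers was 193, 98.3 and 158 CPM in the 28-month libraries and 341 CPM in the 18-month library, with 7 of 7 highest at 18 months, where the share of all units was 26.4%, and none at 0. For 5 red blood cell markers the sum was 378, 145 and 3785 CPM in the 28-month libraries and 183 CPM in the 18-month library. The 4 endothelial markers found summed to 150, 277 and 175 CPM in the 28-month libraries and 186 CPM in the 18-month library. For the 7 markers of dividing cells found, the sum was 26.6, 21.2 and 38.5 CPM against 22.1 CPM. In each of these lists the 18-month sum lay inside the range at 28 months. The part of these cell types in the levels of the members was not tested.

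The replication-dependent histone genes make mRNAs that end in a stem-loop in place of a poly(A) tail. The 16-base motif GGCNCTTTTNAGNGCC, with N for any base, was searched on both strands of the transcripts. It was found in 8 of the 9 histone members on the sense strand, Hist2h2be being the exception, and in 1 of 209 other intronless coding members, the histone gene H2afx. No intronless coding member had it on the other strand. Over all coding genes of the annotation, 44 of 21901 longest transcripts (0.201%) held it. In the most abundant histone member and in a histone H4 gene it reads as follows, all bases being the motif.
Hist1h1c: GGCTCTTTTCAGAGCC
Hist1h4i: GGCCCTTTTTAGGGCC
The first lies at chr13:23739512-23739527 (plus strand) and the second at chr13:22040966-22040981 (minus strand). The median log2 difference of the 9 histone members was -0.03, and 0.39 with 1 bin per unit. The 18-month level was above all others in 3 of the 9 (26.4% of all units) and below all others in 2 (25.4% of all units), or in 0 and 4 with 1 bin per unit (23.8 and 27.3% of all units). Of 10 tested histone and histone mRNA processing genes on a list of mostly multi-bin genes, none was called, and their median was 0.037, or -0.05 with 1 bin per unit. The 12 protocadherin members, adhesion proteins known from neurons, had a median of 0.11, or 0.55 with 1 bin per unit. The 18-month level was above all others in 3 of them and below all others in 2, beside the same shares of all units, or in 1 and 6 with 1 bin per unit.

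The small RNA members were 11 miRNA genes, 4 snoRNAs, 2 miscellaneous RNAs, 1 scaRNA and 1 snRNA, and 18 of the 19 had a mean under 100 counts. The most abundant was Snora28, an H/ACA-type snoRNA that lies inside Eif5 and overlaps an exon of it (chr12:111540941-111541067, plus strand). Its sequence is printed with the last ACA in capitals, the box that names the class, which stands 2 bases before the end of the printed sequence.
Snora28: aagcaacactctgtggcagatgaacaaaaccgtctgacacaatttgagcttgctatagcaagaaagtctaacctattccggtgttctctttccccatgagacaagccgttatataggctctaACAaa
Snora28 had 240, 173 and 185 counts in the 28-month libraries and 227 in the 18-month library, which lay inside that range. Rn7sk, the RNA that holds the transcription elongation factor P-TEFb inactive, had 69, 94 and 43 counts in the 28-month libraries and 76 in the 18-month library, which on the CPM scale was the highest by a small margin, 1.17 against 1.03 in the next. With 1 bin per unit the 18-month level of Rn7sk lay inside the range at 28 months. Gm22482, annotated as a miscellaneous RNA, had 0, 48 and 0 counts in the 28-month libraries and 7 in the 18-month library, so that its place among the members came from replicate 2. A count of 0 allows up to 3 counts, so its absence from the other 2 libraries at 28 months holds only to that depth.

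The RefSeq table held 2 of the 11 miRNA members, and their mature sequences are printed with the seed (bases 2 to 8) in capitals. The 3 mature sequences have different seeds.
mmu-miR-3098-5p: uCCUAACAgcaggaguaggagc
mmu-miR-3098-3p: uUCUGCUGccugccuuuagga
mmu-miR-1191a: cAGUCUUAcuauguagcccua
Mir3098 lies inside Mrpl51 and Mir1191 inside BC024978, and each overlaps an exon of that host gene on the same strand. Reads of the miRNA gene and of the host mRNA thus cannot be told apart. Mir3098 had 36, 37 and 21 counts in the 28-month libraries and 39 in the 18-month library. Mir1191 had 19, 21 and 17 counts in the 28-month libraries and 17 in the 18-month library. On the CPM scale the 18-month level of Mir3098 was the highest by a small margin, and that of Mir1191 lay inside the range at 28 months. With 1 bin per unit that of Mir3098 lay inside the range and that of Mir1191 was the lowest.

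Of the named miRNA genes of muscle, Mir133a-2 had 9, 21 and 16 counts in the 28-month libraries and 4 in the 18-month library. With summed bins it was the only small RNA member with the 18-month level below all others, while 4 had this order with 1 bin per unit. Mir133a-1 had 21, 34 and 28 counts against 23, with overlap on the scale of summed bins. Several miRNA members have only predicted names, and some of these share their sequence. The 57-base units Gm24187 (chr13:9834469-9834525, minus strand), Gm23935 (chr16:11144125-11144181, plus strand) and Gm24270 (chr9:56223715-56223771, minus strand) differ at 1 position, in capitals.
Gm24187: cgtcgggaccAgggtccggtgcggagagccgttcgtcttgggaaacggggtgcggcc
Gm23935: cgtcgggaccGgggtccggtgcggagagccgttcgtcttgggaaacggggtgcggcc
Gm24270: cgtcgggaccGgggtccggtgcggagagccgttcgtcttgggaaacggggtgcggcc
Gm24187 had 156, 60 and 69 counts in the 28-month libraries and 79 in the 18-month library, Gm23935 had 64, 26 and 53 against 77, and Gm24270 had 25, 15 and 19 against 23. Gm23935 and Gm24270 have the same sequence yet different counts, and in all 3 replicate 2 was the lowest library.

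The small RNAs with the smallest p were Gm24951 and Gm22009. Gm24951, annotated as a miRNA (chr19:7959530-7959638, minus strand), had 4, 9 and 11 counts in the 28-month libraries and 38 in the 18-month library. The near-identical Gm26384 (chr17:21284103-21284212, minus strand) had 16, 17 and 20 counts in the 28-month libraries and 18 in the 18-month library. Capitals mark the bases in which the pair differ once the sequences are aligned.
Gm24951: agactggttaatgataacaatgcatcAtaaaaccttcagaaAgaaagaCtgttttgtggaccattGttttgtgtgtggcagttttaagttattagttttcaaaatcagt
Gm26384: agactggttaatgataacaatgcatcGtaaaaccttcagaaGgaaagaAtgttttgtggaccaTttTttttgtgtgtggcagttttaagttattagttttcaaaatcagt
The groups did not overlap for Gm24951, with a log2 difference of -2.39 (SE 0.80) and -1.95 with 1 bin per unit, and overlapped for Gm26384. Gm22009, a scaRNA inside Kpna4, had 11, 26 and 12 counts in the 28-month libraries and 46 in the 18-month library, all 3 below it, with a log2 difference of -1.73 (SE 0.64) and -1.29 with 1 bin per unit. No small RNA was called by edgeR with or without replicate 2.

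Retrocopies made up most of the members. Of 804 processed pseudogene members with a position, 754 matched a gene of the annotation with several exons, and for 744 of them that parent was tested as well, which gave 504 parents. The median identity to the parent was 98.3%, 258 copies were at least 99% and 63 were 100% identical over the aligned part. A copy and its parent had the same sign of difference in 488 of 744 pairs (65.6%), and in 440 of 739 (59.5%) with 1 bin per unit. They share libraries and, in part, reads, so no p is given. The median was -0.47 in the copies and -0.26 in the parents. With 1 bin per unit it was -0.05 in the copies and -0.08 in the parents, and the median of copy minus parent went from -0.22 to -0.03. By identity, its value with summed bins was -0.016 at 98 to 100%, -0.40 at 95 to 98%, -0.65 at 90 to 95% and -0.47 below 90%. With 1 bin per unit these were 0.11, -0.15, -0.44 and -0.13, so the value over all pairs joins groups of unlike sign.

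**Figure D3:**
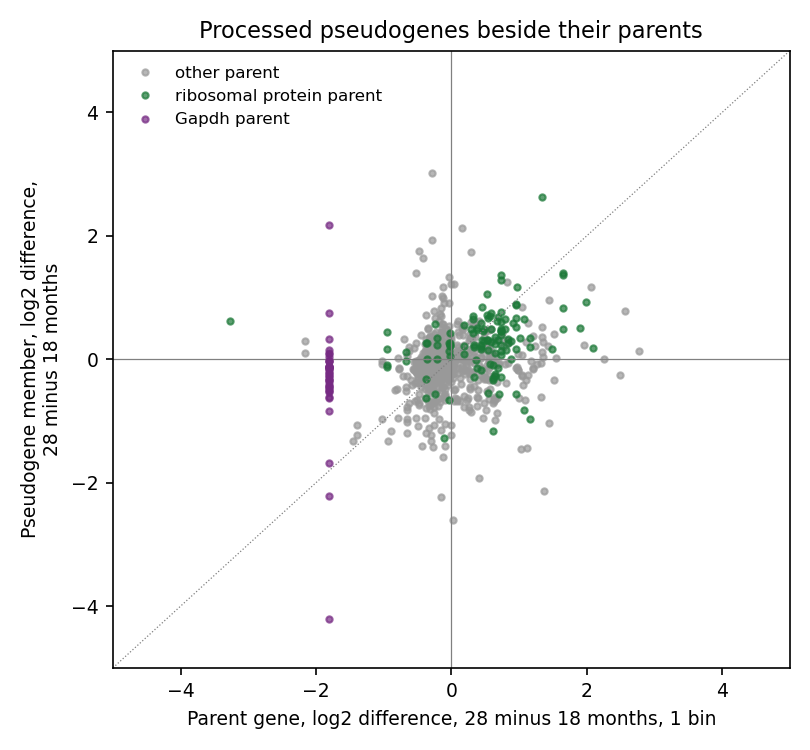
Log2 difference (28 minus 18 months) of the parent gene (horizontal axis) and of its processed pseudogene (vertical axis), both with 1 bin per unit, 1 point for each pair. Copies of ribosomal protein genes lie mostly to the right of 0, copies of Gapdh stand in 1 column at the parent's value of -1.81, and the dotted line marks equal values.

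The retrocopies differed by the kind of parent. The 120 copies of ribosomal protein genes had a median log2 difference of -0.14, and 0.28 with 1 bin per unit, and replicate 2 was the lowest library in 109 of them. The 624 copies of other genes had a median of -0.52, and -0.09 with 1 bin per unit. Both medians are descriptions, and the copies of 1 parent are not independent.

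Tpt1-ps3 (ENSMUSG00000084319, chr6:99877816-99878334), a copy of the gene of translationally controlled tumour protein, was the most abundant named pseudogene by CPM. It was at 1467, 900.0 and 1301 CPM in the 28-month libraries and 1533 CPM in the 18-month library, while Tpt1 itself, to which it is identical over all 519 bases, was at 89.98, 13.4 and 55.2 CPM and 35.4 CPM. In all 4 libraries the copy thus held more counts than the parent. Vcp-rs, a copy of the gene of the AAA ATPase VCP, was at 173, 171 and 173 CPM in the 28-month libraries and 260 CPM in the 18-month library, above all 3. Its parent Vcp had the same order at 124, 117 and 125 CPM and 171 CPM.

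The named pseudogenes with the smallest p in the lower direction were Cox20b, Uqcrh-ps1 and Txn-ps1. Cox20b, a copy of the cytochrome oxidase assembly gene Cox20 (chr7:100580267-100580619), had 50, 40 and 30 counts in the 28-month libraries and 212 in the 18-month library. The fourth library stood far above the others, with a log2 difference of -2.56 (SE 0.53), -2.14 with 1 bin per unit, and an adjusted p (edgeR) of 0.0277 without replicate 2. The parent Cox20 had the opposite order, at 21.7, 17.5 and 18.7 CPM in the 28-month libraries and 10.8 CPM in the 18-month library. Txn-ps1, a copy of the thioredoxin gene Txn1, had 45, 56 and 37 counts in the 28-month libraries and 148 in the 18-month library, with a log2 difference of -1.87 (SE 0.48), -1.44 with 1 bin per unit, and an adjusted p (edgeR) of 0.0486 without replicate 2. Its parent too was lowest at 18 months, at 98.2, 80.0 and 83.6 CPM against 53.1 CPM. Uqcrh-ps1, a copy of a complex III subunit gene, had 4, 5 and 4 counts in the 28-month libraries and 32 in the 18-month library, with a log2 difference of -3.03 (SE 0.67), or -2.60 with 1 bin per unit. These counts are low, and its adjusted p without replicate 2 was 0.0602 (edgeR), or 0.0479 with 1 bin per unit. These 3 copies were 92.9 to 97.2% identical to their parents.

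Fabp3-ps1, a copy of the fatty acid binding protein gene of heart and muscle chosen after its values were seen, had the same order of libraries as its parent. It was at 38.5, 72.0 and 32.6 CPM in the 28-month libraries and 146 CPM in the 18-month library, and Fabp3 was at 27.4, 45.3 and 21.3 CPM and 81.0 CPM. In both the 18-month library was the highest and replicate 2 the next. The copy, 99.3% identical, had a log2 difference of -1.62 (SE 0.47), or -1.17 with 1 bin per unit. Rps12-ps24, another copy of Rps12, had 16, 33 and 17 counts in the 28-month libraries and 4 in the 18-month library, lowest of all, with a log2 difference of 2.19 (SE 0.86), or 2.63 with 1 bin per unit.

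Gm42418 (ENSMUSG00000098178, chr17:39846958-39848788) was the predicted gene with the highest counts. RefSeq lists it as Rn18s-rs5, a sequence related to 18S ribosomal RNA. It was at 2607, 886 and 1595 CPM in the 28-month libraries and 3320 CPM in the 18-month library, so the fourth library was the highest, and replicate 2 was far below the other 2 at 28 months. The processed pseudogenes Gm1840 and Gm15427, also high in counts, differed in order, the first at 245, 130 and 256 CPM against 312 CPM and the second at 305, 87.8 and 280 CPM against 183 CPM.

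The Gapdh copies shown above include the member with the smallest p. Gm4335 had 20, 10 and 13 counts in the 28-month libraries and 328 in the 18-month library. Gm10291 had 121, 269 and 78 counts in the 28-month libraries and 810 in the 18-month library. For both, the 18-month library lay far outside the range of the other 3. The log2 difference was -4.62 (SE 0.64) for Gm4335 and -2.66 (SE 0.46) for Gm10291, or -4.21 and -2.22 with 1 bin per unit. Gapdh itself was at 251, 205 and 184 CPM in the 28-month libraries and 1251 CPM in the 18-month library, again with the fourth library far above. The adjusted p (edgeR) without replicate 2 was 0.0143 for both copies, and with all libraries DESeq2 gave 1.59e-05 and 0.00337.

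The other Gapdh copies did not all share this. The 39 copies with Gapdh as the tested parent had a median log2 difference of -0.64, or -0.23 with 1 bin per unit, and the 18-month level was above all others in 28 of them, where the share of all units was 26.4%. With 1 bin per unit it was above all others in 12 of them, where the share of all units was 23.8%. This order was common to retrocopies of any parent. Of all 744 processed pseudogene copies with a tested parent, 488 had it, or 234 with 1 bin per unit. Gm12671, identical to Gapdh over the printed window, had 128, 80 and 117 counts in the 28-month libraries and 137 in the 18-month library, a narrow margin. With 1 bin per unit the 18-month level of Gm12671 lay inside the range at 28 months. Gm13464 had 212, 106 and 191 counts in the 28-month libraries and 47 in the 18-month library, the reverse order, with a log2 difference of 1.77 (SE 0.83), 2.18 with 1 bin per unit, and an adjusted p (edgeR) of 0.0257 without replicate 2. For Gm13464, replicate 2 was the 28-month library nearest the 18-month level, and with all libraries edgeR did not call it. Copies of the same gene thus differed in sign within the same libraries.

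4933415F23Rik (chr1:23100473-23102253) was a coding predicted gene with 76, 54 and 57 counts in the 28-month libraries and 433 in the 18-month library. The 3 libraries at 28 months lay close together and far below the fourth, with a log2 difference of -2.92 (SE 0.50), -2.51 with 1 bin per unit, and an adjusted p (edgeR) of 0.0150 without replicate 2. Gm8355 (chr10:14745362-14747302), a pseudogene 75.0% identical to the heat shock gene Hspa2 and chosen after its values were seen, had 2296, 3501 and 2007 counts in the 28-month libraries and 4823 in the 18-month library. On the CPM scale its 28-month libraries were at 34.4, 35.9 and 33.2 and the 18-month library at 74.1, with a log2 difference of -1.10 (SE 0.23), or -0.67 with 1 bin per unit.

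Copies of 3 genes of polyamine synthesis were chosen after their values were seen. Polyamines are made from ornithine by ornithine decarboxylase (Odc1), with aminopropyl groups supplied by S-adenosylmethionine decarboxylase (Amd1) and added in part by spermine synthase (Sms). Their copies among the members were Amd2, Amd-ps3 and Amd-ps4 of Amd1, Sms-ps of Sms, and Gm17709, Gm9115, Gm7278, Gm15470 and Gm14928 of Odc1. In 9 of the 9 the 18-month level was above all 28-month levels on both scales, where the share of all units was 26.4% with summed bins and 23.8% with 1 bin per unit. Since they were picked for this, the count is a description.

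Amd2, which keeps a full coding sequence, was at 17.4, 59.7 and 12.3 CPM in the 28-month libraries and 97.9 CPM in the 18-month library, and Amd1 was at 79.3, 263 and 51.6 CPM and 489 CPM. Copy and parent had the same order of libraries, with replicate 2 between the other 28-month libraries and the 18-month library. Leaving out replicate 2 thus removes the 28-month library nearest the 18-month level. With all libraries edgeR did not call Amd2, which had a log2 difference of -1.72 (SE 0.85) or, with 1 bin per unit, -1.25. Its adjusted p (edgeR) without replicate 2 was 0.0131. Gm17709 had 349, 395 and 337 counts in the 28-month libraries and 877 in the 18-month library, and Gm9115 had 335, 387 and 326 against 824. These 2 copies had 28-month libraries close together and log2 differences of -1.44 (SE 0.32) and -1.40 (SE 0.31), or -1.02 and -0.97 with 1 bin per unit. Odc1 was at 67.2, 53.5 and 75.8 CPM in the 28-month libraries and 108 CPM in the 18-month library, with a margin narrower than that of its copies. Sms-ps, 100% identical to Sms, was at 51.8, 38.0 and 44.5 CPM against 80.2 CPM, close to the parent's 49.3, 33.0 and 43.2 CPM against 84.2 CPM.

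**Figure D4:**
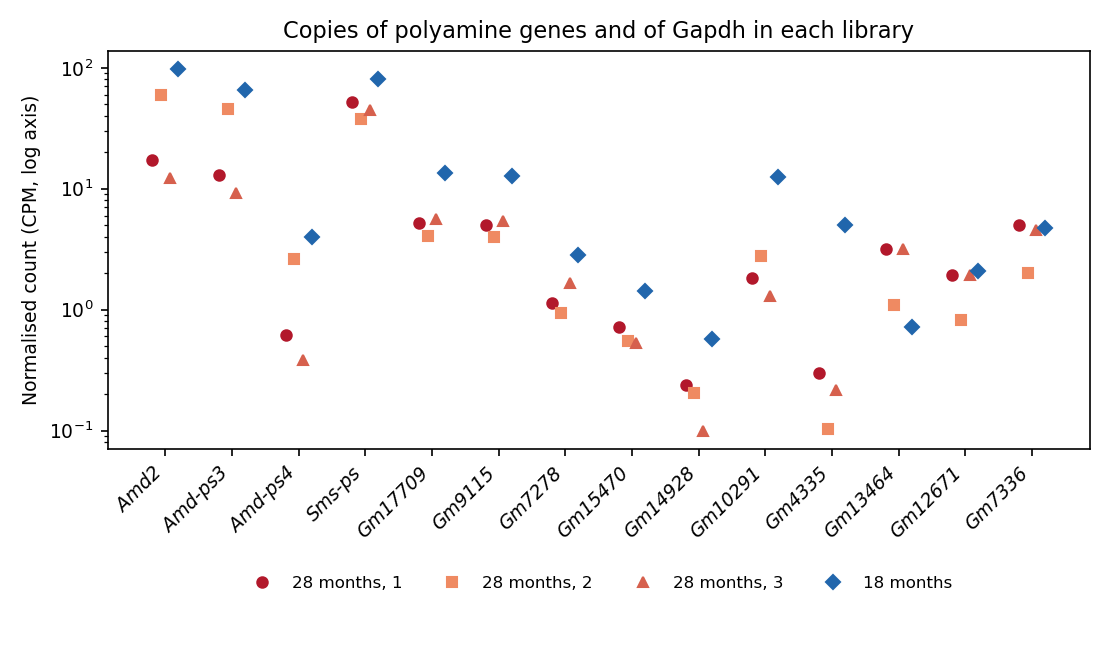
Normalised level (CPM, log axis) in each library of the 9 copies of polyamine genes and of 5 copies of Gapdh, with circles, squares and triangles for 28-month replicates 1, 2 and 3 and diamonds for the 18-month library. The diamond is the highest point in the 9 polyamine gene copies and in Gm10291, Gm4335 and Gm12671, and the lowest in Gm13464.

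In the mitochondrial genome, 11 single-bin genes were members, and in 10 of them the 18-month level was above every 28-month level, where the share of all units was 26.4%. mt-Co1 (cytochrome c oxidase subunit 1, chrM:5328-6872) had 1878337, 1527186 and 1555374 counts in the 28-month libraries and 3796485 in the 18-month library. The large ribosomal RNA gene mt-Rnr2 (chrM:1094-2675) had 48703, 83161 and 42409 counts in the 28-month libraries and 143071 in the 18-month library. In both the groups were far apart, and the log2 difference was -1.33 (SE 0.65) for mt-Co1 and -1.53 (SE 0.35) for mt-Rnr2, or -0.91 and -1.09 with 1 bin per unit. The other subunit genes gave -1.28 (SE 0.56) for mt-Cytb of complex III, and -1.39 (SE 0.52) for mt-Nd5 and -1.62 (SE 0.38) for mt-Nd6 of complex I, and the small ribosomal RNA gene mt-Rnr1 gave -1.49 (SE 0.43). With 1 bin per unit these were -0.86, -0.97, -1.20 and -1.04 in the same order. The adjusted p (edgeR) was 0.859 for each with all libraries, while without replicate 2 it was 0.0131 for mt-Rnr2, 0.0153 for mt-Cytb and 0.0143 for the other 4. With all libraries DESeq2 gave 0.00832 for mt-Rnr2 and called none of the other 5.

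mt-Co2 was the exception, with 16719, 1393 and 15615 counts in the 28-month libraries and 12711 in the 18-month library, where replicate 2 was far below the rest. Its nuclear copy Gm28661, identical to it over 681 bases, had 9543, 15395 and 2743 counts in the 28-month libraries and 742 in the 18-month library, so the library that was low for the gene was the highest for the copy. Of the counts of the pair, the copy held 36.3, 91.7 and 14.9% at 28 months and 5.52% at 18 months (95% exact binomial interval 5.14 to 5.91%). The sum of the pair was 393, 172 and 304 CPM in the 28-month libraries and 207 CPM in the 18-month library. The log2 difference of 3.34 (SE 0.88), or 3.78 with 1 bin per unit, was that of Gm28661 alone. With summed bins the 18-month level of the sum lay inside the range at 28 months. The pair had 26262, 16788 and 18358 counts in the 28-month libraries and 13453 in the 18-month library. Scaled as in the fit with 1 bin per unit, the 18-month level of the sum was the lowest, so this overlap depends on the scale.

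A second set of copies in the same stretch of chromosome 1 also took varying shares. Gm10925, a copy of mt-Atp6 (ATP synthase subunit a), had 38841, 30945 and 4311 counts in the 28-month libraries and 945 in the 18-month library, with a log2 difference of 4.48 (SE 1.40), or 4.89 with 1 bin per unit. Gm28437, a copy of mt-Co3 (cytochrome c oxidase subunit 3), had 2563, 40361 and 238 counts in the 28-month libraries and 5080 in the 18-month library, with no order by age. Both are 100% identical to their mitochondrial genes. The mitochondrial side is a joined unit of mt-Co3, mt-Atp8 and mt-Atp6, and of its counts summed with those of both copies, the copies held 95.7, 69.3 and 13.3% at 28 months and 9.74% at 18 months (interval 9.51 to 9.97%). The total was 648, 1055 and 568 CPM in the 28-month libraries and 950 CPM in the 18-month library, with overlap on the scale of summed bins. The other 2 pairs on chromosome 1 were unlike these. Gm29216, a partial copy of mt-Co1, held 0.540, 0.0228 and 0.0134% of the pair's counts at 28 months and 0.0427% at 18 months, and the sum of 28275, 15661 and 25766 CPM stayed below the 58320 CPM at 18 months. Gm28438, a copy of mt-Nd3 with 11 to 16 counts per library, held 36.4, 18.5 and 28.2% at 28 months and 16.5% at 18 months, and the sum of 0.659, 0.666 and 0.646 CPM stayed below 1.21 CPM. Gm13341, the more distant copy of mt-Co2 on chromosome 2 shown above, had 84, 65 and 51 counts in the 28-month libraries and 156 in the 18-month library, so that the 18-month library was the highest, as in the other 10 mitochondrial members and not as in mt-Co2. Gm13340, a copy of mt-Co1 on the same chromosome and 97.6% identical, did not follow its gene. It had 91, 78 and 698 counts in the 28-month libraries and 328 in the 18-month library, inside that range.

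**Figure D5:**
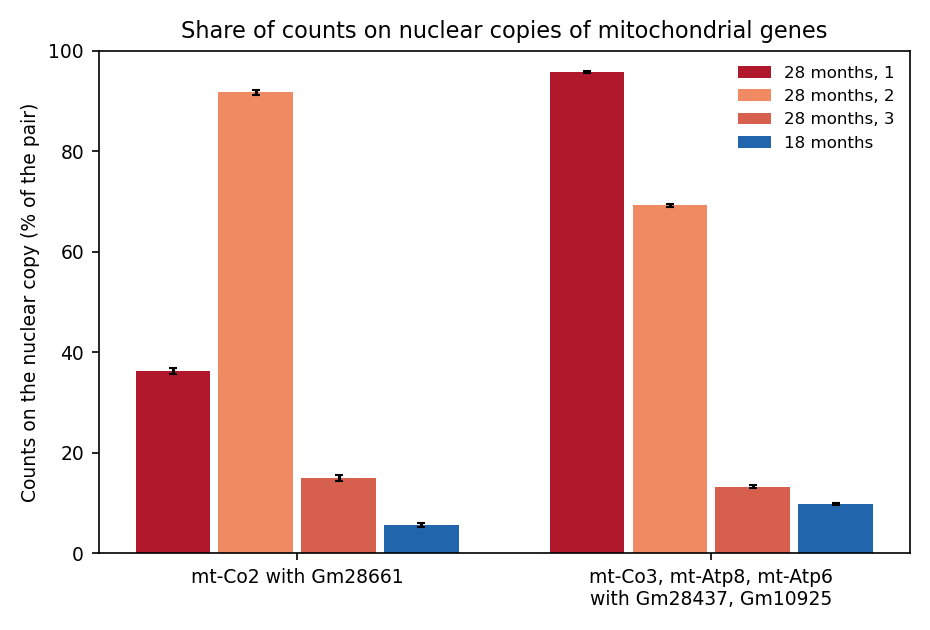
Share of the counts of a mitochondrial gene and its nuclear copies that fell on the copies (percent, vertical axis), for the 2 sets of genes whose sums overlapped on the CPM scale of summed bins, of 4 sets examined, in the 4 libraries, with 95% exact binomial intervals. The share ranges from 14.9 to 91.7% and from 13.3 to 95.7% among the 28-month libraries and is 5.52 and 9.74% at 18 months.

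The 28 unmatched units and the 4 named noncoding genes gave little beyond this. The unmatched units had a median log2 difference of -0.52, or -0.08 with 1 bin per unit, and 16 of them had the 18-month level above all others, where the share of all units was 26.4%, or 10 of them with 1 bin per unit, where it was 23.8%. Igkc, the immunoglobulin kappa constant segment, was at 3.13, 12.9 and 7.44 CPM in the 28-month libraries and 12.5 CPM in the 18-month library, inside that range. Kcnq1ot1, the imprinted antisense RNA of the Kcnq1 locus, was at 0.374, 1.30 and 0.298 CPM in the 28-month libraries and 0.737 CPM in the 18-month library, also inside it.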

How the data were processed

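Per the labels' tissue fields, total RNA of thigh skeletal muscle was sequenced. Per the submitters' processing notes, bcl2fastq 1.8.3 and TopHat2 2.0.4 were used with GRCm38. The authors deposited 1 table of raw, unscaled read counts for each library, with a row per exonic bin. The counter, its strand setting and its annotation are not given in the sources used here. Special entries that name no gene equalled 3.36 to 5.20% of a table and were left out.

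Counts were summed per gene unit, scaled by TMM (factors 0.877, 1.28 and 0.897 at 28 months and 0.990 at 18 months) and tested with the edgeR 4.0.16 quasi-likelihood test (R 4.3.3) over all 15376 units that averaged 10 or more counts, with Benjamini-Hochberg adjustment. The residual spread comes from the 28-month libraries alone, and in a fit that leaves out 1 of them from the remaining ones. Of those fits only that without replicate 2 called members, and the values printed for single genes come from it. CPM use TMM-scaled totals. The fit was tested on simulated data. Classes, positions and transcripts came from GENCODE M21 (GRCm38), miRNA sequences from RefSeq (GRCm38.p6), and parents from BLAST 2.17.0. Alternatives were DESeq2 1.42.0, limma 3.58.1, other scalings and filters, leaving out each 28-month library and, added after seeing the data, 1 bin per unit. Members and lists were chosen with earlier results of these data known. The genes named were, in each class, the 4 with the highest mean CPM, 3 more on either side with the lowest p, and fixed names. Not all of them are printed, and other choices are marked.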

Additional observations from a re-analysis of the deposited data

How the results depend on the processing

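No paired analysis was possible because the 18-month group has 1 library and its label carries no replicate number.

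Members called higher at 28 months numbered 0 with all libraries in edgeR, 2 by the DESeq2 Wald test, 0 to 13 when each 28-month library was left out in turn, and 0 to 83 when that was done with 1 bin per unit. Members called lower numbered 0, 4, 0 to 74 and 0 to 41 in the same order, and the top of each range came without replicate 2, with the cause not tested. With 1 bin per unit the median log2 difference was 0.0105 over members, 0.125 in intronless coding genes, -0.909 in the mitochondrial genome, -0.00290 in named pseudogenes, -0.0217 in predicted genes, 0.105 in small RNAs and -0.0849 in unmatched units, and the difference of processed pseudogenes from their parents was -0.0257. By construction this alternative changes the other units and not the members' counts. With a mean count of at least 50, that difference was -0.180 and the median of intronless coding genes -0.369. Leaving out 1 library gave -0.363 to -0.288 in intronless coding genes and -0.565 to -0.445 in unmatched units. Single-bin units with at least 5 counts numbered 1355 (mean) at 28 months and 1414 at 18 months. With mitochondrial units out of the denominator, members outside the mitochondrial genome held 2.42% of counts at 18 months. Of the 28 genes whose log2 difference is printed, none changed sign under any alternative, and 309 of their values kept their side of the threshold while 50 passed it. limma voom called no member. Depth limits the small RNAs most, as 18 of the 19 averaged under 100 counts.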
